A study of Mus musculus with 7 samples.

Results

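The respiratory chain and ATP synthase of the inner mitochondrial membrane are built mostly from nuclear genes, and 91 of these genes were measured in mouse basal cell carcinoma, newborn epidermis and a basal cell carcinoma cell line. They were taken by name, without regard to their values. Every probe set assigned to exactly 1 gene was kept if its symbol starts with Nduf, Uqcr, Cox4, Cox5, Cox6, Cox7, Cox8 or Atp5, or is Sdha, Sdhb, Sdhc, Sdhd or Cyc1. This gave 180 probe sets of 91 genes, out of 34945 probe sets of 18193 genes with 1 assigned gene. Another 10 probe sets that such a gene shares with a second gene were left out. By complex there were 6 core subunits, 28 accessory subunits and 8 assembly factors of complex I, 4 genes of complex II, 9 of complex III, 19 of complex IV and 17 of complex V. Ndufa4 and Ndufa4l2 were placed with complex IV, where Ndufa4 is now known to sit, in spite of their names.

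Levels were read on 7 single-channel Affymetrix arrays as linear signal intensities. The groups were 2 dissected basal cell carcinomas, 2 normal epidermis samples from newborn (P0) mice, and PDKC1, a mouse basal cell carcinoma line, on 1 array each at 0 h (untreated), 6 h and 10 h of cyclopamine, an alkaloid inhibitor of Smoothened, the membrane protein that turns on Hedgehog signalling. Tissue arrays were made from 100 ng of RNA and PDKC1 arrays from 2000 ng. The strain, the genotype and age of the tumour-bearing mice, the genetic cause of the tumours and the dose of cyclopamine are not stated in the labels, and no adult epidermis was analysed, so tumour and age cannot be told apart. Whether replicates are separate animals is not in the labels; the p-values therefore measure the spread between these samples only, and that spread may be technical. The small number of arrays sets the precision.

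Complex I takes electrons from NADH and complex II takes them from succinate; both pass them through ubiquinone to complex III, then through cytochrome c to complex IV, which reduces oxygen. Complexes I, III and IV pump protons, and complex V lets the protons flow back and makes ATP. The core proteins carry the redox centres and the catalysis; accessory subunits surround them, and some subunits of complex IV exist as tissue-restricted isoforms. Epidermal keratinocytes make ATP both by this route and by glycolysis.

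The tumour RNA had less signal towards the 5' end than the epidermis RNA. The 3' to 5' intensity ratio of the Actb control probe sets reached 11.3 in tumour 1 and 93.1 in tumour 2, beside 3.98 and 2.84 in the epidermis, and lay between 1.15 and 1.21 in PDKC1. For Gapdh it was 10.6 and 15.4 in the tumours, against 5.27 and 4.52 in the epidermis. Cell type markers differed as well: 8 of 9 measured markers of spinous and granular keratinocytes fell in the tumours and 8 of 10 fibroblast and matrix genes rose, while 1 of 7 basal keratinocyte markers, Krt14, fell. Skeletal muscle genes summed to 24546 and 4648 in the tumours, against 1070 and 1055 in the epidermis, with 7 of 21 called higher and 5 of 21 at or under 16 in both epidermis arrays. PDKC1 held the basal keratins Krt5 (31322, 29659 and 30115 at 0, 6 and 10 h) and Krt14 (33585, 30255 and 31729). The basal marker Krt15 had 957.0, 1147 and 1203 in PDKC1, against tumour values of 23733 and 13434 and epidermis values of 24436 and 30782. PDKC1 held little of the spinous keratin Krt1 (28.3, 33.8 and 47.3). The part of RNA quality and of cell makeup in the differences given here was not tested.

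Most respiratory chain genes were lower in the tumours. Of the 91 genes, 41 (45.1%) fell at an adjusted p under 0.05, against 12.5% of all genes, and 3 (3.30%) rose, against 16.6% of all genes. The test was limma's moderated fit on log2(intensity + 16), adjusted over all 18193 genes. The median log2 difference, tumour minus epidermis, was -0.72 over the 91 genes and 0.09 over all genes. Both tumours lay below both epidermis samples for 70 genes (76.9%; 29.8% of all genes) and above both for 9 genes (9.89%; 35.8% of all genes). Because these genes are bright, they were also set beside the 2650 genes at or above their own 25th percentile of level: there 29.4% fell and 17.8% rose, and of the 68 respiratory chain genes in that range 37 (54.4%) fell and 1 rose. In bulk tissue, fewer cells of a type and less RNA per cell cannot be told apart.

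**Figure D1:**
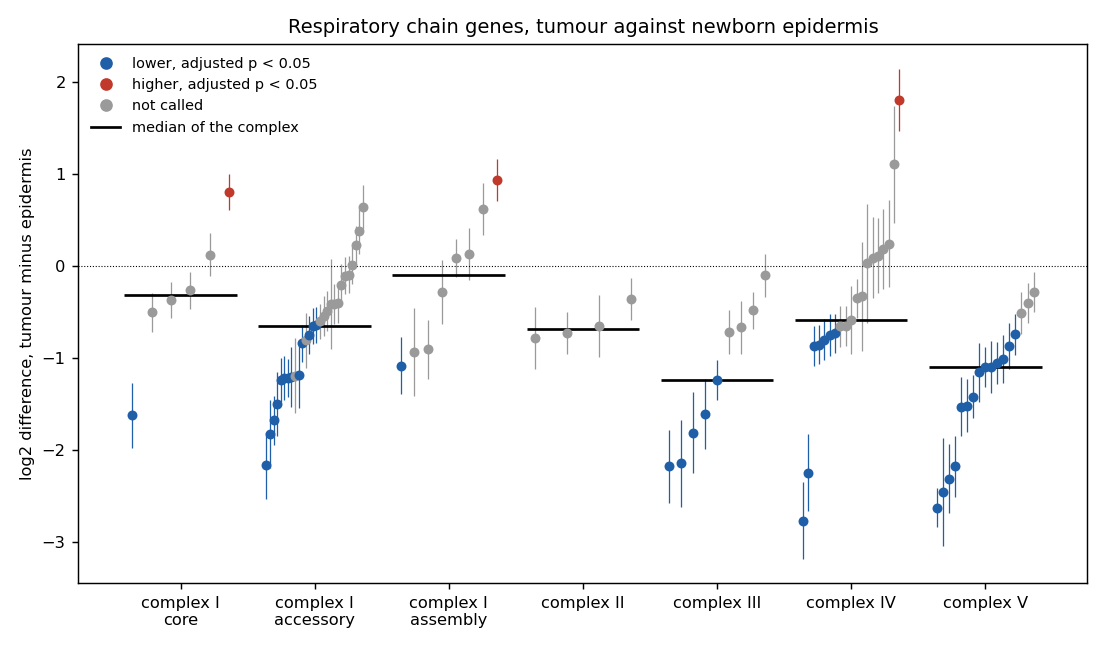
Log2 difference, tumour minus epidermis, of the 91 genes by complex; each point is 1 gene with its standard error from the fit on 2 tumour and 2 epidermis arrays, and the black bar is the median of the complex. Complexes III and V lie below 0 as a whole, with medians of -1.24 and -1.10, while complex IV spans -2.77 to 1.81.

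The calls depended on which arrays gave the spread and on scaling. With 1 epidermis array left out, the spread of a gene comes from the tumour pair alone and the lone epidermis array is assumed to vary alike. There were then 3 lower calls without epidermis replicate 1 and 2 without epidermis replicate 2, near the shares of all genes (2.95% without replicate 1 and 3.40% without replicate 2). The median differences were -0.73 without replicate 1 and -0.71 without replicate 2. All 41 genes stayed negative, but this was fixed in advance. For each of them both tumours lay below both epidermis samples, so leaving out an array could not change the sign. Without tumour 1 there were 57 lower and 6 higher calls (18.4% and 19.5% of all genes), and without tumour 2 there were 50 and 3 (14.2% and 17.4% of all genes). Quantile normalization gave 28 lower and 5 higher calls (14.8% and 11.9% of all genes), 25 of the 28 among the 41. The 16 calls lost with it were those of Atp5a1, Atp5c1, Atp5g3, Atp5j, Atp5j2, Atp5k, Cox5a, Cox6a1, Cox6b1, Cox6c, Cox7a2, Ndufa7, Ndufb3, Ndufb5, Ndufc1 and Uqcrfs1. Centring each array on its median gave 60 lower calls, all 41 among them, and 1 higher call (21.2% and 10.9% of all genes). The median of all genes was 0.09 as deposited, -0.19 after quantile normalization and -0.31 after centring. Relative to it, the median of the respiratory chain genes was -0.81 as deposited, -0.28 after quantile normalization and -0.81 after centring.

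Tumour 2 was the lower of the tumours for most of these genes. It lay below tumour 1 for 66 of 91 genes (72.5%), against 51.7% of all genes, and more than 2-fold below for 18 (19.8%), against 9.15% of all genes. Of the 41 genes that fell, 38 were lower in tumour 2. The median difference from the epidermis was -0.63 in tumour 1 and -0.79 in tumour 2. Tumour 2 also had the higher 3' to 5' ratios and the lower sum of muscle genes; their part in this was not tested.

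**Figure D2:**
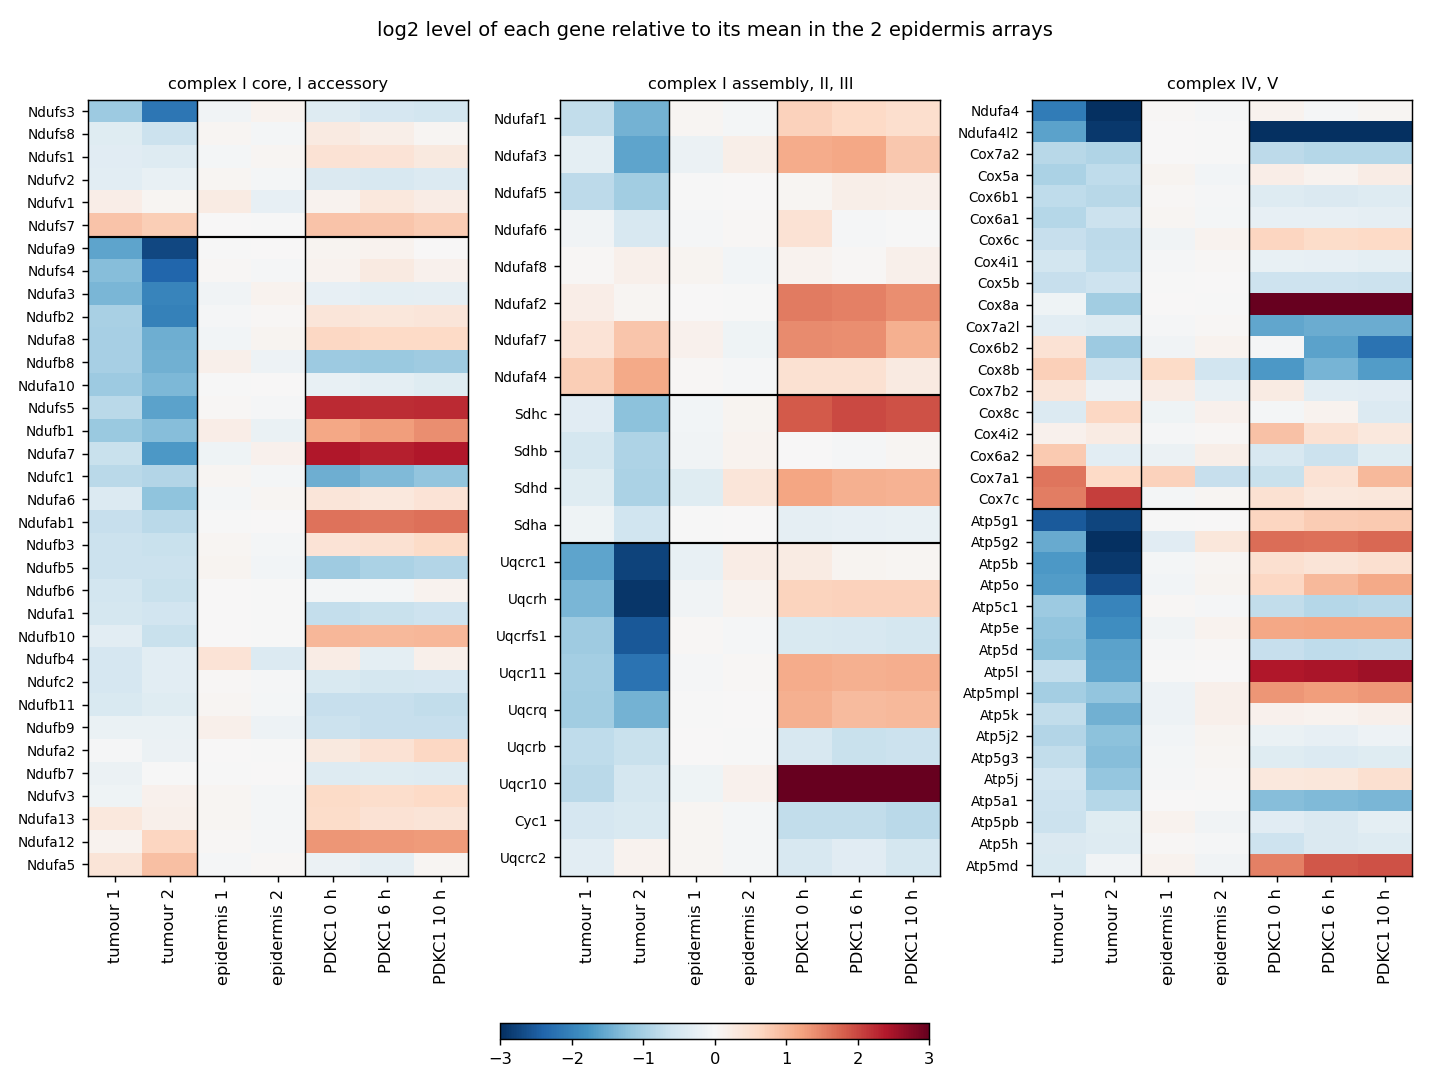
Log2 level of each gene on each of the 7 arrays relative to its mean in the 2 epidermis arrays, in 3 panels by complex; blue is lower, red is higher, and colours stop at -3 and 3. Tumour columns are blue for most genes, darker in tumour 2, and the 3 PDKC1 columns of a gene look alike.

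Promoters of these genes are known for sites of nuclear respiratory factor 1 (NRF1), the ETS factor GABPA (also called NRF2), YY1 and the oestrogen-related receptor ESRRA, which drive respiratory genes together with the PGC-1 coactivators. Because many of the genes fell together, the RefSeq promoter windows (GRCm38.p6, 250 bases before to 50 after a start) were searched on both strands for GCGCATGCG (NRF1), CCGGAAG (GABPA), AAGATGGCG (YY1) and TCAAGGTCA (ESRRA). A window was at hand for 74 of the 91 genes, 79 windows in all. GABPA's letters were in 19 of the 79 windows (24.1%; 8.86% of all 32851 windows), NRF1's in 9 (11.4%; 1.75%), YY1's in 7 (8.86%; 1.40%) and ESRRA's in 2 (2.53%; 0.423%). The median GC content was 59.0% in these windows and 52.7% in all windows, and base composition was not matched. Any of the 4 words was in 18 of 40 windows of genes that fell (45.0%) and in 12 of 39 windows of the others (30.8%), a difference that was not tested. Shown are the 120 bases before the start for the gene with the largest fall that held each word there. Capitals mark the word.
Atp5g2 promoter, chr15:102671048-102671167, minus strand, NRF1 word: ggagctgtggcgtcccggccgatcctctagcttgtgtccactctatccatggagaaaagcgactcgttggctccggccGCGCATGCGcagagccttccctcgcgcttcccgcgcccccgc
Uqcrh promoter, chr4:116075071-116075190, minus strand, GABPA word as its reverse complement: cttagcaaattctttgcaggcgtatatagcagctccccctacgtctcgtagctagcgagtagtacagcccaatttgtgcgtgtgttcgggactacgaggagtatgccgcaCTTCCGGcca
Atp5j promoter, chr16:84834977-84835096, minus strand, YY1 word: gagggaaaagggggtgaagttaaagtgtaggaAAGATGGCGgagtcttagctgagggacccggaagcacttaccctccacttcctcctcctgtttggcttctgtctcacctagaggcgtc
Atp5g3 promoter, chr2:73911327-73911446, minus strand, ESRRA word as its reverse complement: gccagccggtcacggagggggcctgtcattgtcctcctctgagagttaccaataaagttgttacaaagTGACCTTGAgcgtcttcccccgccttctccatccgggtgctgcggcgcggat
The Atp5j stretch also holds the GABPA word, in lower case after the YY1 word, and the other stretches hold 1 of the 4 words each. A match is a description of letters, not of a bound site.

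Among the 6 core subunits of complex I, 1 fell and 1 rose (16.7% each way, against 12.5% lower and 16.6% higher over all genes). The median difference was -0.32 (0.02 after quantile normalization). Ndufs3, a core subunit of the peripheral arm, had intensities of 2267 and 1074 in the tumours, against 4479 and 5249.9 in the epidermis. Both tumours were below both epidermis samples, and the log2 difference was -1.62 ± 0.35 (SE), adjusted p = 0.0156. Ndufs7, which carries the last iron-sulphur cluster before ubiquinone, had 5941 and 5467 in the tumours, against 3288 and 3214 in the epidermis, and rose by 0.81 ± 0.20 (SE), adjusted p = 0.0227. Its other probe set read 2585 and 1099 in the tumours, against 2651 and 3559.9 in the epidermis, a difference of -0.86 that was not called (adjusted p = 0.166), so the direction for Ndufs7 depended on the probe set; the call of the first was lost with median centring. The brightest genes without a call were Ndufs8, which holds a pair of iron-sulphur clusters, and Ndufv2. Ndufs8 had 6293 and 5191 in the tumours, against 8445 and 7813 in the epidermis (-0.51); Ndufv2 had 6125 and 6532 in the tumours, against 7965 and 7275 in the epidermis (-0.27, and 0.13 after quantile normalization). Ndufs1 and Ndufv1, the subunits at the NADH end of the chain of clusters, differed by -0.37 and 0.12 and were not called by their brightest probe sets. Other probe sets of these genes were lower: one of Ndufv1 read 2415 and 1657 in the tumours, against 5107 and 6237 in the epidermis (-1.49 ± 0.26 (SE), adjusted p = 0.00683), one of Ndufv2 differed by -1.11 ± 0.27 (SE), adjusted p = 0.0235, and 3 of the 6 of Ndufs8 were called lower. With only probe sets that have no letter before the ending _at, 4 of 5 core genes were called lower, with a median of -1.49.

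Of the accessory subunits of complex I, 13 of 28 fell (46.4%) and 0 rose by limma. Over all genes 12.5% fell and 16.6% rose. Of the 2650 genes as bright as the respiratory chain genes 29.4% fell and 17.8% rose. For the accessory subunits 24 of 28 differences were negative, with a median of -0.65. At an unadjusted p under 0.05, 17 were lower and 1 was higher. Ndufa9, an accessory subunit close to the ubiquinone site, had 2021 and 903.3 in the tumours, against 6098 and 6161 in the epidermis, a log2 difference of -2.17 ± 0.37 (SE), adjusted p = 0.00628. Tumour 2 had the lowest value of the 7 arrays for this gene. Ndufs4, needed for a stable NADH module, had 876.4 and 399.3 in the tumours, against 2191 and 2099 in the epidermis (-1.83 ± 0.37 (SE), adjusted p = 0.0114). Ndufa3 had 5146 and 3395 in the tumours, against 12429 and 14487 in the epidermis (-1.68 ± 0.26 (SE), adjusted p = 0.00477). In all of these the groups stood apart, and tumour 1 lay between tumour 2 and the epidermis. Ndufb2, in the membrane arm, had 1993 and 942.9 in the tumours, against 3844 and 3989 in the epidermis (-1.50 ± 0.35 (SE), adjusted p = 0.0197). Ndufa8 had 1633 and 1174 in the tumours, against 3124 and 3469 in the epidermis (-1.24 ± 0.24 (SE), adjusted p = 0.00966). The other 8 that fell were Ndufb8, Ndufa10, Ndufs5, Ndufa7, Ndufc1, Ndufab1 (the mitochondrial acyl carrier protein), Ndufb3 and Ndufb5, with differences between -1.22 and -0.64.

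Bright accessory subunits did not always fall by their brightest probe set. Ndufa1 had 12715 and 12349 in the tumours, against 18424 and 18110 in the epidermis, a difference of -0.54 that missed the threshold (adjusted p = 0.105) and was 0.04 after quantile normalization. Ndufc2 had 9877 and 11220 in the tumours, against 14408 and 13630 in the epidermis (-0.41; 0.12 after quantile normalization). The 4 genes above 0 were Ndufv3, Ndufa13, Ndufa12 and Ndufa5, with differences between 0.01 and 0.64, none of them called. Ndufa13 and Ndufa5 were called higher after quantile normalization, Ndufa12 and Ndufa5 without tumour 1, Ndufa5 with all 7 arrays in 1 fit, and Ndufa12 with probe sets that have no letter before _at. Another 8 without a call, Ndufb1, Ndufa6, Ndufb6, Ndufb10, Ndufb11, Ndufb9, Ndufa2 and Ndufb7, lay between -1.19 and -0.09. Other probe sets of Ndufb6, Ndufb11, Ndufb7 and Ndufb9 were called lower (-1.49, -1.42, -1.32 and -1.14), as was one of Ndufc2 (-1.65). Ndufb4 was measured only by a dim probe set, with 19.9 and 24.5 in the tumours, against 52.0 and 22.0 in the epidermis.

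Of the 8 assembly factors of complex I, 1 fell and 1 rose (12.5% each way, against 12.5% lower and 16.6% higher over all genes), 4 differences were negative, and the median was -0.10 (-0.74 after quantile normalization and -0.50 after centring). Ndufaf1, an assembly factor of the membrane arm, had 490.2 and 299.6 in the tumours, against 870.8 and 793.2 in the epidermis, and fell (-1.08 ± 0.31 (SE), adjusted p = 0.0385). Ndufaf4, which helps assemble the module that meets ubiquinone, had 1851 and 2434 in the tumours, against 1124 and 1082 in the epidermis, and rose (0.93 ± 0.23 (SE), adjusted p = 0.0229). The groups did not overlap, and the call was lost with median centring. The brightest without a call were Ndufaf8, with 1764 and 1925 in the tumours, against 1822 and 1648 in the epidermis, and Ndufaf7, with 556.7 and 756.9 in the tumours, against 453.3 and 382.1 in the epidermis. Ndufaf8 differed by 0.09 and Ndufaf7 by 0.62, which was called higher without tumour 1. The other 4, Ndufaf3, Ndufaf5, Ndufaf6 and Ndufaf2, lay between -0.94 and 0.13.

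None of the 4 genes of complex II, the succinate dehydrogenase that also belongs to the citric acid cycle, was called by limma, with 1 lower at an unadjusted p under 0.05, 4 lower without tumour 1 and 4 with median centring. All 4 differences were negative, with a median of -0.69 and all 4 lower in tumour 2 than in tumour 1. Sdhb, the iron-sulphur subunit, had 3446 and 2613 in the tumours, against 4596 and 5372 in the epidermis, a difference of -0.72 ± 0.23 (SE), adjusted p = 0.0546. Sdha, the flavoprotein, had 5413 and 3939 in the tumours, against 5868 and 5971 in the epidermis (-0.36 ± 0.23 (SE), adjusted p = 0.303). The membrane anchors differed by -0.79 for Sdhc and -0.65 for Sdhd, whose groups overlapped, with 870.9 and 575.8 in the tumours, against 865.7 and 1455 in the epidermis.

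Complex III had a median of -1.24, the lowest of the 7 groups here and in 13 of 14 alternatives. Without tumour 1 complex V was lower, at -1.45 beside -1.42. In complex III 5 of 9 genes fell (55.6%, against 12.5% of all genes and 29.4% of genes as bright as the respiratory chain genes). By limma 0 rose (0 at an unadjusted p under 0.05), and all 9 differences were negative. Uqcrc1, a core protein of the matrix side, had 2249 and 973.0 in the tumours, against 5789 and 7866 in the epidermis, a log2 difference of -2.18 ± 0.40 (SE), adjusted p = 0.00824. Uqcrh, the hinge protein at cytochrome c1, whose promoter holds the GABPA word, had 2038 and 678.1 in the tumours, against 4867 and 5709 in the epidermis (-2.15 ± 0.47 (SE), adjusted p = 0.016). Uqcrfs1, the Rieske iron-sulphur protein, had 3292 and 1175 in the tumours, against 7147 and 6754 in the epidermis (-1.81 ± 0.44 (SE), adjusted p = 0.024). For these 3 genes tumour 2 lay more than 2-fold below tumour 1, and both tumours were below both epidermis samples; quantile normalization ended the call for Uqcrfs1. Uqcr11 had 1865 and 804.5 in the tumours, against 3677 and 3873 in the epidermis (-1.61 ± 0.38 (SE), adjusted p = 0.0208). Uqcrq had 1498 and 1152 in the tumours, against 3099.5 and 3136 in the epidermis (-1.24 ± 0.22 (SE), adjusted p = 0.00751). The bright genes Uqcrb and Cyc1 were lower in both tumours without a call by the probe set that stands for the gene. Uqcrb, a ubiquinone-binding subunit, had 25010 and 26507 in the tumours, against 42528 and 42245 in the epidermis (-0.72 ± 0.24 (SE), adjusted p = 0.0654). Cyc1, cytochrome c1 itself, had 7173 and 7336 in the tumours, against 10467 and 9797 in the epidermis (-0.48 ± 0.20 (SE), adjusted p = 0.125). Uqcrc2, the partner of Uqcrc1, had 5853 and 7933 in the tumours, against 7650.2 and 7000.2 in the epidermis, which overlapped (-0.10). Its other probe set read 2221.9 and 1283.3 in the tumours, against 4798.7 and 5598.6 in the epidermis, and was called lower (-1.61 ± 0.30 (SE), adjusted p = 0.00853). The other probe set of Uqcrb read 1589.8 and 761.5 in the tumours, against 4570.5 and 4363.1 in the epidermis. It was called lower too (adjusted p = 0.00658). For Uqcrb and Uqcrc2 the call thus depended on the probe set. The remaining gene, Uqcr10, had 280.7 and 344.6 in the tumours, against 462.2 and 549.4 in the epidermis (-0.67, not called).

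Complex IV held both the largest fall and the largest rise of the 91 genes. Of 19 genes, 7 fell and 1 rose (36.8% and 5.26%), with a median of -0.59. Over all genes 12.5% fell and 16.6% rose. Of genes as bright as the respiratory chain genes 29.4% fell and 17.8% rose. Ndufa4 had 1822 and 701.5 in the tumours, against 8029 and 7597 in the epidermis, a log2 difference of -2.77 ± 0.42 (SE), adjusted p = 0.00413. Ndufa4l2, its paralog that is known as a hypoxia-induced gene, had 518.0 and 200.9 in the tumours, against 1621 and 1582 in the epidermis (-2.25 ± 0.42 (SE), adjusted p = 0.00909). Both genes had their lowest tissue value in tumour 2. The other 5 falls were smaller by the brightest probe set and were in widely expressed subunits. Cox7a2 had 12057 and 11490 in the tumours, against 21774 and 21329 in the epidermis (-0.87 ± 0.22 (SE), adjusted p = 0.025). Cox5a had 5562 and 6378 in the tumours, against 11465 and 10178 in the epidermis (-0.86 ± 0.21 (SE), adjusted p = 0.0245). Cox6b1 had 14584 and 13962 in the tumours, against 25556 and 24218 in the epidermis (-0.80 ± 0.22 (SE), adjusted p = 0.0361). Cox6a1 and Cox6c also fell (-0.75 and -0.73), and after quantile normalization the calls of these 5 genes were lost and 2 genes of the complex were called lower. Less bright probe sets fell further for Cox6a1 (-2.37), Cox5a (-2.08), Cox6b1 (-1.41) and Cox7a2 (-1.31), and these were called lower. The other probe set of Cox6c differed by -0.04 and was not called. The size of these falls thus depended on the probe set.

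Cox4i1, Cox5b and Cox8a were lower in both tumours without a call by the probe set that stands for the gene. Cox4i1, the subunit that binds ATP as a regulator, had 12621 and 10818 in the tumours, against 17854 and 18936 in the epidermis (-0.65 ± 0.22 (SE), adjusted p = 0.0691). Cox5b had 14834 and 15449 in the tumours, against 23513 and 24091 in the epidermis (-0.65 ± 0.22 (SE), adjusted p = 0.0682). Another probe set of Cox5b was called lower (-1.17), dimmer ones were called higher (1.67 and 1.41), and the rest were not called. Cox8a had 417.3 and 211.4 in the tumours, against 457.6 and 454.2 in the epidermis (-0.59 ± 0.37 (SE), adjusted p = 0.297). Cox7a2l differed by -0.35 and was not called either. The gene that rose was Cox7c, with 437.2 and 642.9 in the tumours, against 135.0 and 145.2 in the epidermis (1.81 ± 0.34 (SE), adjusted p = 0.00913). Its only other probe set read 140.8 and 121.7 in the tumours, against 37.8 and 6.8 in the epidermis, a difference of 2.07, and was called higher too. Both probe sets of Cox7c were dim in the epidermis.

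The isoforms of complex IV subunits known from particular tissues were not called, and most were dim. The striated muscle isoforms were Cox6a2, with 282.5 and 122.6 in the tumours, against 137.1 and 177.8 in the epidermis, Cox7a1, with 98.4 and 40.4 in the tumours, against 44.3 and 7.1 in the epidermis, and Cox8b, with 87.6 and 24.3 in the tumours, against 78.4 and 26.5 in the epidermis. In all 3 the tumour and epidermis values overlapped, with differences of 0.24, 1.11 and 0.03. Tumour 1, which had the higher sum of muscle genes, was the higher tumour in all 3, as it was for 66 of the 91 genes. The part of muscle in this was not tested. The isoforms known from testis were Cox6b2 (138.6 and 37.3 in the tumours, against 90.1 and 106.6 in the epidermis), Cox8c (217.7 and 461.9 in the tumours, against 267.7 and 320.3 in the epidermis) and Cox7b2 (13.9 and 4.7 in the tumours, against 11.1 and 4.2 in the epidermis). Cox4i2, the isoform of lung and of low oxygen, had 41.7 and 46.4 in the tumours, against 35.9 and 38.1 in the epidermis.

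**Figure D3:**
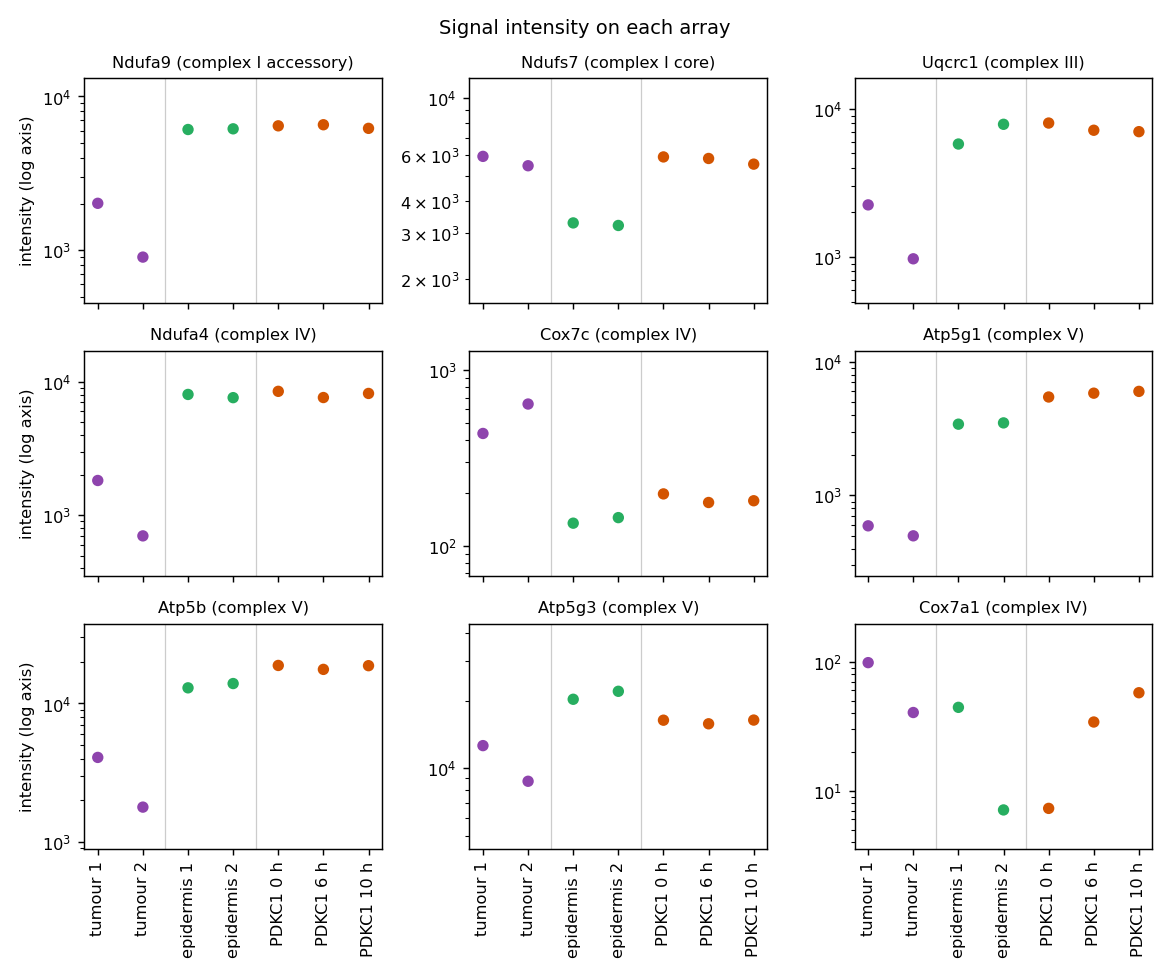
Signal intensity of 9 genes on each of the 7 arrays, on log axes, with 1 point per array. Ndufa9, Uqcrc1, Ndufa4, Atp5g1, Atp5b and Atp5g3 are lower in both tumours than in both epidermis samples, Ndufs7 and Cox7c are higher in both, and the muscle isoform Cox7a1 overlaps.

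Complex V, the ATP synthase, had the largest share of falls of the 7 groups, and kept that rank in 8 of 14 alternatives. Among these were both fits without an epidermis array, in which too few genes were called to give a rank. In complex V 14 of 17 genes fell (82.35%, against 12.5% of all genes and 29.4% of genes as bright as the respiratory chain genes). By limma 0 rose (0 at an unadjusted p under 0.05), and the median was -1.10. Both tumours lay below both epidermis samples for all 17, against 29.8% of all genes and 50.9% of genes so bright. After quantile normalization 8 of the 17 were called lower, beside 5 of 9 in complex III; complex III or II had the larger share also after centring, with the mean of all probe sets, without tumour 1 and with all 7 arrays in 1 fit, and the core of complex I with probe sets that have no letter before _at. The c subunit of the membrane ring is encoded by Atp5g1, Atp5g2 and Atp5g3, which give the same mature protein, and each fell. Atp5g1 had 592.5 and 498.8 in the tumours, against 3409 and 3485 in the epidermis (-2.63 ± 0.21 (SE), adjusted p = 0.000713). Atp5g2, whose promoter holds the NRF1 word, had 996.7 and 254.4 in the tumours, against 2270.4 and 3609 in the epidermis (-2.46 ± 0.59 (SE), adjusted p = 0.0214). Atp5g3 had 12588 and 8729 in the tumours, against 20260 and 21988 in the epidermis (-1.01 ± 0.26 (SE), adjusted p = 0.028). Atp5g1 was even between the tumours, while Atp5g2 was lower in tumour 2 than in tumour 1 (-1.91 on the log2 scale).

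The catalytic head and the stalks of the ATP synthase were lower too. Atp5b, the catalytic beta subunit, had 4077 and 1783 in the tumours, against 12976 and 13936 in the epidermis (-2.31 ± 0.38 (SE), adjusted p = 0.00557). Atp5o, which joins the head to the outer stalk, had 1696 and 847.6 in the tumours, against 5147 and 5846 in the epidermis (-2.18 ± 0.33 (SE), adjusted p = 0.00444). Atp5c1, the turning gamma subunit, had 9272 and 4971 in the tumours, against 19959 and 19300 in the epidermis (-1.53 ± 0.32 (SE), adjusted p = 0.0135). In these 3 genes tumour 2 was the lower tumour, and the groups stood apart. The other 8 that fell were Atp5e, Atp5d, Atp5l, Atp5mpl, Atp5k, Atp5j2, Atp5j and Atp5a1 (the alpha subunit), with differences between -1.52 and -0.74. Those not called by their brightest probe set were Atp5pb, Atp5h and Atp5md (-0.28). Atp5pb had 7599 and 9256 in the tumours, against 12914 and 11072 in the epidermis (-0.51). Atp5h had 14019 and 14433 in the tumours, against 19408 and 18205 in the epidermis (-0.40, and 0.20 after quantile normalization). Other probe sets were called lower for Atp5pb (-1.73 ± 0.23 (SE), adjusted p = 0.00258) and Atp5h (-1.59 ± 0.28 (SE), adjusted p = 0.00683).

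Different probe sets of a gene did not always move together. Among the 180 probe sets 70 were called lower and 13 higher, against 10.7% and 16.6% of all 34945 probe sets. For 6 genes, Atp5c1, Atp5g1, Cox5b, Ndufab1, Ndufb2 and Ndufs4, 1 probe set was called lower and another higher. A second probe set of Atp5c1 read 1208 and 1518 in the tumours, against 76.7 and 151.4 in the epidermis, a rise of 3.46 ± 0.36 (SE), adjusted p = 0.00121, opposite to the brighter probe set. For Ndufab1, whose brightest probe set had 974.8 and 901.1 in the tumours, against 1574 and 1604 in the epidermis, another read 399.3 and 704.4 in the tumours, against 5.4 and 30.0 in the epidermis (4.12 ± 0.54 (SE), adjusted p = 0.00255). For Ndufs4 the opposing probe set read 407.2 and 471.4 in the tumours, against 65.8 and 14.2 in the epidermis (3.19 ± 0.55 (SE), adjusted p = 0.00643).

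Probe sets were also divided by their mean log2 level over the 4 tissue arrays, at the level of an intensity of 300, a division made after the data were seen. Of the 46 dimmer ones, 9 were called higher and 2 lower (19.6% and 4.35%), against 13.3% and 3.44% of all probe sets so dim. Of the 134 brighter ones, 4 were called higher and 68 lower (2.99% and 50.7%), against 22.8% and 24.1% of all such probe sets. Among the 37 genes with at least 2 probe sets over a mean of 500, the signs matched for 31, and the median span between a gene's probe sets was 1.05 on the log2 scale. The brightest probe set, which stands for the gene here, had the highest difference of its gene in 24 of these 37 genes. Where in a transcript each probe set reads was not analysed here.

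**Figure D4:**
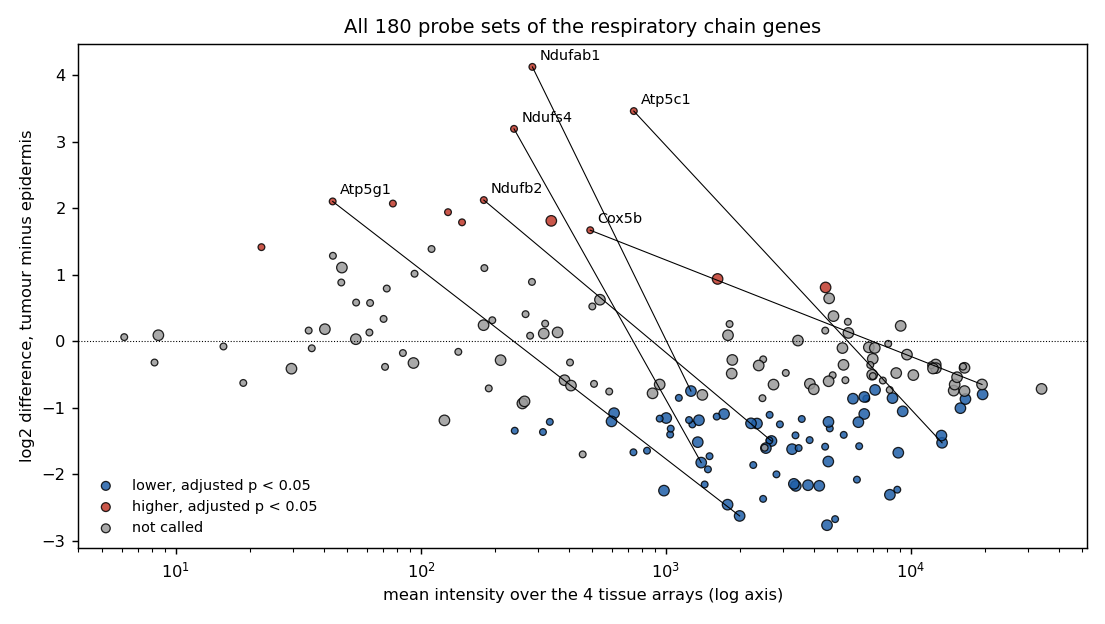
Log2 difference, tumour minus epidermis, against mean intensity over the 4 tissue arrays (log axis) for all 180 probe sets. Large points are the probe set that stands for its gene. For the 6 genes with opposing calls, a line joins that probe set, not itself called for Cox5b, to the one that rose most. Of the 134 probe sets with a mean log2 level, which is not the plotted axis, at or over that of an intensity of 300, 68 are lower in the tumours (blue) and 4 are higher (red).

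Other mitochondrial gene groups are set beside the 12.5% of all genes that fell and the 16.6% that rose. Of 17 measured genes of the citric acid cycle and pyruvate dehydrogenase 5 fell and 1 rose (29.4% and 5.88%). Among genes as bright as the respiratory chain genes the share that fell was also 29.4%, and 17.8% rose. The median difference was -0.41, beside 0.09 over all genes and -0.25 over genes so bright. Idh2, a mitochondrial isocitrate dehydrogenase, had 1224 and 650.1 in the tumours, against 3266 and 4217 in the epidermis (-2.04 ± 0.33 (SE), adjusted p = 0.00529). Sucla2, a subunit of succinyl-CoA synthetase, had 4017 and 3385 in the tumours, against 15070 and 13092 in the epidermis (-1.92 ± 0.22 (SE), adjusted p = 0.00157). Ogdh and Suclg1 also fell (-1.80 and -1.11). Of 14 electron carrier, ubiquinone synthesis and nucleotide exchange genes 2 fell and 2 rose (14.3% each way, near the shares of all genes; median -0.27). Slc25a5, an ADP/ATP carrier, had 8819.8 and 4886 in the tumours, against 22980 and 23536 in the epidermis (-1.82 ± 0.31 (SE), adjusted p = 0.00653); Vdac2, a porin of the outer membrane, also fell (-1.09), and the ubiquinone synthesis genes Coq5 and Coq2 rose by 0.93 and 0.74.

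Of 18 genes of complex IV assembly and copper delivery 5 fell and 2 rose (27.8% and 11.1%, against 12.5% and 16.6% of all genes), with a median of -0.38. Cox19 had 756.6 and 639.0 in the tumours, against 2559 and 2533 in the epidermis (-1.85 ± 0.21 (SE), adjusted p = 0.00172), while Cox15, which makes haem A, had 566.5 and 942.7 in the tumours, against 309.2 and 213.9 in the epidermis (1.45 ± 0.35 (SE), adjusted p = 0.0233). Coa7 and Pet100 also fell (-1.71 and -1.58). Of 8 further complex I assembly genes 2 fell and 1 rose (25% and 12.5%): Acad9 had 805.3 and 357.3 in the tumours, against 5288 and 5916 in the epidermis (-3.34 ± 0.37 (SE), adjusted p = 0.0015), Nubpl fell (-1.18) and Tmem186 rose by 2.00. Of 13 assembly genes of complexes II, III and V (15.4% lower and 7.69% higher, near or below the shares of all genes) 2 fell, Uqcc3 and Uqcc2 (-1.36 and -0.97), and 1 rose, Ttc19 (2.03).

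Of 19 regulators of mitochondrial biogenesis 0 fell by limma (0 at an unadjusted p under 0.05, 6 higher) and 2 rose (10.5%, below the 16.6% of all genes), and the median was 0.19, beside 0.09 over all genes. Ppargc1a, the coactivator PGC-1 alpha, had 366.6 and 735.5 in the tumours, against 50.8 and 32.9 in the epidermis (3.23 ± 0.46 (SE), adjusted p = 0.0036), and 4 of its 5 probe sets were called higher. Ppargc1b, PGC-1 beta, had 533.3 and 852.1 in the tumours, against 115.9 and 122.9 in the epidermis (2.35 ± 0.35 (SE), adjusted p = 0.00396). Both tumours were above both epidermis samples for both genes, and tumour 2 was the higher. Ppargc1a was called higher under all 13 alternatives in which it was tested, with adjusted p between 0.00065 and 0.0356, and Ppargc1b under all 14, between 0.000334 and 0.0489. Ppargc1a is also a marker on the brown adipocyte list, of which 2 of 5 were called higher, Ppargc1a itself and Dio2. The others on that list, Ucp1, Cidea and Elovl3, were not called (-0.65, 0.14 and 1.45). Of the white adipocyte markers 2 of 5 were called higher. Nrf1, Gabpa, Yy1, Esrra and Tfam, the factors whose words were searched in the promoters and the mitochondrial transcription factor, were not called (-0.18, -0.16, -0.35, -0.37 and -0.10).

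Of 15 genes of glycolysis, the other route to ATP, 5 fell and 3 rose (33.3% and 20%, against 12.5% and 16.6% of all genes, and 29.4% and 17.8% of genes as bright as the respiratory chain genes), with a median of -0.48. Pfkl, the liver form of phosphofructokinase, had 650.1 and 203.3 in the tumours, against 3191 and 3664 in the epidermis (-3.17 ± 0.49 (SE), adjusted p = 0.00444), and Pgam1 fell (-2.04). Eno3, the muscle enolase, had 938.1 and 660.6 in the tumours, against 124.3 and 128.1 in the epidermis (2.50 ± 0.32 (SE), adjusted p = 0.00239), and Hk2, a hexokinase, rose by 1.84. Of 11 proliferation genes 5 fell (45.5%) and 0 rose by limma (0 at an unadjusted p under 0.05; median -0.40).

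PDKC1 cells had higher levels of many respiratory chain genes than the tissues. All 3 PDKC1 arrays lay above all 4 tissue arrays for 41 of 91 genes (45.1%), against 17.9% of all genes, and below all 4 for 14 (15.4%), against 22.8% of all genes. They lay above both tumours for 60 genes (65.9%), against 25.9% of all genes. The gap was smaller at matched level. Of the 2650 genes as bright as the respiratory chain genes, 26.57% lay above all 4 tissue arrays and 43.51% above both tumours. For the 68 respiratory chain genes in that range the shares were 42.65% and 67.65%. Uqcr10, a small subunit of complex III, had 5486, 5666 and 5907 in PDKC1 at 0, 6 and 10 h, against tumour values of 280.7 and 344.6 and epidermis values of 462.2 and 549.4. Cox8a had 5026, 4996 and 5201 in PDKC1, against tumour values of 417.3 and 211.4 and epidermis values of 457.6 and 454.2. Ndufa7 had 9856, 9456 and 9843 in PDKC1, against tumour values of 1165 and 555.2 and epidermis values of 1706 and 2023. These 3 genes were several times brighter in the cell line than in any tissue. Atp5g2 had 9232, 9086 and 9509 in PDKC1, against tumour values of 996.7 and 254.4 and epidermis values of 2270.4 and 3609. In the opposite direction Ndufa4l2 had 19.9, 17.3 and 26.8 in PDKC1, against tumour values of 518.0 and 200.9 and epidermis values of 1621 and 1582, and Cox7a2l, a factor of supercomplexes, had 4825, 5003 and 5004 in PDKC1, against tumour values of 11288 and 10852 and epidermis values of 13789 and 14476. Another probe set of Cox7a2l had 5292, 5530 and 5759 in PDKC1, against tumour values of 2287 and 559.1 and epidermis values of 2604 and 4652. The direction for Cox7a2l thus depended on the probe set. The examples were chosen after their values were seen. PDKC1 arrays were made from another amount of RNA and had far lower 3' to 5' ratios, so cell line, RNA amount and RNA quality cannot be told apart in these differences, and no test was made.

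In PDKC1 with cyclopamine most respiratory chain genes stayed near their level at 0 h. Of the 86 genes whose brightest PDKC1 array was over that array's median, 0 rose and 1 fell at least 1.5-fold at both 6 h and 10 h, against 2.55% and 2.84% of all 11566 such genes. Within 1.2-fold of 0 h at both times were 76 of the 86 (88.4%), against 51.3% of all such genes. The genes behind this last share were not matched to the 86 for level. The median log2 difference over all 91 genes was -0.03 at 6 h and -0.01 at 10 h. Of the 2650 genes at or above the 25th percentile of the respiratory chain genes' level, 0.566% rose and 0.302% fell. This choice by the brightest array favours a gene that is high at 1 time. Chosen by the mean level of the 3 arrays instead, after the data were seen, 84 genes were left without Cox6b2 and Cox4i2, and 0 rose and 0 fell, against 1.3% and 1.1% of all 10452 such genes. With 1 array per time there is no replicate check and no test.

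The gene past 1.5-fold was the testis isoform Cox6b2, with 96.2, 21.5 and 8.4 at 0, 6 and 10 h, under the array median at 6 and 10 h; it counted only through its 0 h array. Next in size were Cox4i2, with 80.7, 56.6 and 50.1 (-0.41 at 6 h and -0.55 at 10 h) and likewise over the array median at 0 h only, and the assembly factor Ndufaf6, with 317.9, 227.0 and 232.1 (-0.46 at 6 h and -0.43 at 10 h). Uqcrb had 30425, 26807 and 27143 (-0.18 at 6 h and -0.16 at 10 h). Cox4i2, Ndufaf6 and Uqcrb were short of 1.5-fold at both times. Upwards, Atp5o had 8412, 10694 and 12144 (0.35 at 6 h and 0.53 at 10 h) and Atp5md, a small subunit of the membrane part, had 5872, 7442 and 7769 (0.34 at 6 h and 0.40 at 10 h). Ndufc1 had 2972, 3295 and 3627 and Atp5h 12288, 13844 and 14297, with differences of 0.15 at 6 h and 0.29 at 10 h and of 0.17 at 6 h and 0.22 at 10 h. Cox7a1 and Cox7b2 had the remaining large ratios but were dim in PDKC1, with 7.3, 34.1 and 57.5 and 11.7, 2.8 and 2.4.

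**Figure D5:**
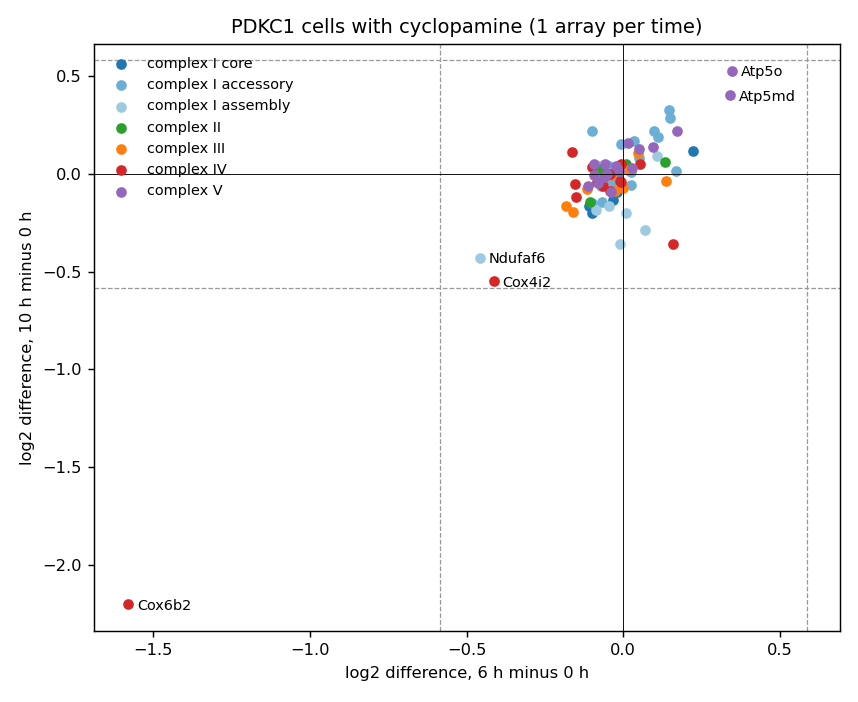
Log2 difference from 0 h at 6 h (x axis) and 10 h (y axis) of the 86 genes bright enough in PDKC1, coloured by complex, with 1 array per time and dashed lines at 1.5-fold. Nearly all genes lie close to 0 on both axes; Cox6b2 alone lies past 1.5-fold at both times.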

How the data were processed

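RNA abundance was measured on 7 arrays: 2 of tumour, 2 of epidermis and 3 of PDKC1. Per the labels' protocols, total RNA was isolated on columns and labelled as biotin cRNA after Affymetrix's own manual. The values deposited by the authors are linear signal intensities of 45101 probe sets; the software behind them is not given in the sources used here. With the outer 2 percent at each end trimmed, every array had a mean of 500.0, as scaling whole arrays would give. No further normalization was applied. Left out were 64 control probe sets, 932 that name several genes and 9160 that name none. Each gene was represented by its brightest probe set (mean log2 value on all 7 arrays).

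Values were taken as log2(intensity + 16) from the deposited intensities. The 4 tissue arrays were fitted in R 4.3.3 with limma 3.58.1 (functions lmFit and eBayes, trend on, no covariate), and p-values were adjusted by Benjamini and Hochberg's method across 18193 genes, with a call below 0.05. Errors are standard errors of the fit, n = 2 arrays in each group. Probe sets were fitted in the same way over all 34945. PDKC1, with 1 array per time, was described without a test. The fit was tested on simulated data. Replicate numbers were not used as pairs, since no label ties them across tissues.

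The genes, the pathway and cell type lists and the tests were chosen with earlier results of these data known; list genes that were not measured were not analysed here. By rule, values on every array are given for up to 5 called genes in each direction and up to 2 bright uncalled genes per complex, for tissue-restricted isoforms with their partners, for the 5 largest rises and falls in PDKC1, and for up to 4 called genes of each pathway list. Cox7b, the partner of Cox7b2, was not analysed here. The alternatives were quantile normalization, median centring, 4 or 64 as the pseudocount, a filter at the 40th percentile of level, averaging a gene's probe sets, fitting every probe set, eBayes without its trend, a replicate block, omitting each array, and a fit of all 7 arrays; probe sets with no letter before the ending _at, and brightness by the mean PDKC1 level, were added after the data were seen. Promoter sequences came from RefSeq (GRCm38.p6).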

Additional observations from a re-analysis of the deposited data

How the results depend on the processing

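With 2 arrays in each group, the lower count (41 genes) ranged from 2 to 57 and the higher count (3 genes) from 0 to 6 when 1 array was left out, while the share of all genes ranged from 2.95% to 18.4% lower and from 4.62% to 19.5% higher. Without a variance trend 17 genes were lower and 1 was higher. Higher calls numbered 5 after quantile normalization, 1 after centring, 7 with probe sets that have no letter before _at (73 genes tested, 36 lower) and 13 of 180 with all probe sets, where 70 were lower. The median difference of -0.72 was -0.48 after quantile normalization, -1.12 after centring and -1.08 with probe sets that have no letter before _at. In PDKC1 the median at 6 h was -0.0278 and became 0.0358 after centring, while 1 gene was past 1.5-fold at both times under each of 5 other settings; with brightness by the mean PDKC1 level, added after the data were seen, it was 0 of 84. With the replicate number as a block 34 genes were lower and 3 higher, and the call ended for Atp5a1, Cox6a1, Cox6b1, Cox6c, Ndufab1, Ndufb3 and Ndufb5. Whether the numbers pair the samples is not in the labels. The deviations of the first replicates correlated at -0.00064 over 18193 genes, which cannot show whether samples were handled together. A pseudocount of 4 or 64, leaving out dim genes, the mean of all probe sets and all 7 arrays in 1 fit kept the 2 counts within 1.5 times (lower 40, 41, 49, 34 and 58).

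Over 51 genes chosen by the naming rule, 538 of 703 values kept direction and side of the threshold, 79 lost the call, 50 gained it and 36 turned direction; the cause was not tested. After quantile normalization the turned values were 0.13 for Ndufv2, 0.0432 for Ndufa1, 0.12 for Ndufc2, 0.20 for Atp5h, -0.48 for Cox8b, -0.0293 for Cox7b2, -0.48 for Cox8c, -0.20 for Cox4i2 and -0.55 for Cox6a2. After centring they were -0.31 for Ndufaf8, -0.37 for Cox8b, -0.31 for Cox7b2, -0.29 for Cox8c, -0.22 for Cox4i2 and -0.16 for Cox6a2. With the mean of all probe sets they were -0.0258 for Ndufs7, 0.34 for Ndufs4, -0.31 for Ndufaf8, 0.34 for Sdha, 0.0232 for Cox5b and 0.97 for Atp5c1. With probe sets that have no letter before _at they were -0.86 for Ndufs7, 2.12 for Ndufb2, -0.71 for Ndufaf8, 0.57 for Uqcrq, 1.67 for Cox5b, 2.10 for Atp5g1 and 3.46 for Atp5c1. Leaving out 1 array turned 5 isoform genes, whose values then ranged from -1.10 to 0.44 for Cox6b2, -0.65 to 0.71 for Cox8b, -0.18 to 0.35 for Cox7b2, -0.40 to 0.63 for Cox8c and -0.31 to 0.79 for Cox6a2.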

Other observations

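Other cell types were read through the remaining marker lists, given here as values. In the tumours 6 of 10 pericyte and smooth muscle genes, 3 of 8 endothelial genes and 2 of 8 macrophage genes were called higher, and 1 macrophage gene was called lower. Of 3 measured erythroid genes 0 were called by limma and 0 had an unadjusted p under 0.05. Summed over the endothelial list, intensity was 1488 and 1202 in the tumours, against 343.5 and 441.2 in the epidermis. For the pericyte and smooth muscle list it was 9729 and 7345 in the tumours, against 2822 and 2203 in the epidermis. These lists share no gene with the respiratory chain genes.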
